A study of Mus musculus with 2 samples.

Results

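A group of 10 genes that mast cells and basophils are known for was followed in BM LSKs, the BM cells without lineage markers that carry Sca1 and c-Kit and hold the hematopoietic stem and progenitor cells. The genes were picked by symbol, and all 10 are among the 34745 genes of the deposited tables. They had been chosen because their FPKM differed between the libraries that are compared here, so their differences are given as a description, with no test. The mice were Scl/tTA-BA double transgenic animals on a C57BL/6 background, in which Scl regulatory sequence drives the tTA transactivator and tTA drives BCR/ABL (BA) through a TRE promoter. Both groups carried both transgenes. At week-0 the mice were still on doxycycline, which keeps BA off, and at week-3 doxycycline had been withdrawn for 3 weeks. RNA-seq was performed on 1 library per time point, each from pooled LSKs of 3 mice. The spread between mice is therefore unknown, and each difference below is between these 2 libraries, without a replicate check. The age and sex of the mice were not given in the sources used here.

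The library of week-0 held 6356164 reads on genes and that of week-3 held 3886695. At this depth 3 reads, the floor used here, correspond to a level of 0.472 per 1000000 reads on genes (RPM) for week-0 and of 0.772 RPM for week-3. Of 12 stem and progenitor markers, all had reads in both libraries. Kit had 1391 and 580 reads at week-0 and week-3, Ly6a, which encodes Sca1, had 434 and 199, and Flt3 had 6177 and 934. The list took 2490 RPM at week-0 and 1105 at week-3. The mouse genes Bcr and Abl1 had 371 and 395 reads at week-0 and 108 and 144 at week-3, and these rows do not measure the transgene by itself.

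Mast cells arise from hematopoietic progenitors, carry the receptor c-Kit throughout life and store proteases, histamine and serotonin in granules bound to heparin. The proteases are chymases and tryptases, which are serine proteases, and a carboxypeptidase. IgE bound to the high-affinity receptor, which is built from an alpha chain, a beta chain and shared gamma chains, triggers release of the granules when antigen crosslinks it. Basophils carry the same receptor and use a partly different set of proteases.

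At week-3, all 10 genes had an FPKM at least 2 times that at week-0, the limit used here for genes with at least 10 reads over both libraries. Across the table, 11.9% of the 13689 genes with that many reads were higher by this limit and 17.9% were at most 0.5 times. Since the genes had been chosen from this contrast, their count is printed beside these shares and nothing is read from it. At a ratio of at least 4, 9 of the 10 genes, all but Mcpt8, were past the limit, beside 3.03% of all genes. Together the 10 genes had 1170 reads at week-0, or 184 RPM (95% exact Poisson interval 174 to 195), and 16166 reads at week-3, or 4159 RPM (4095 to 4224). Their sum was thus 22.6 times higher at week-3 (95% exact Clopper-Pearson interval 21.3 to 24.0) and took 0.416% of all reads on genes. The intervals cover counting error only and treat each read as a separate count. Amplification can turn 1 molecule into many reads, so they can be too narrow even for that error. In bulk RNA, more cells of a type and more RNA per cell cannot be told apart.

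**Figure D1:**
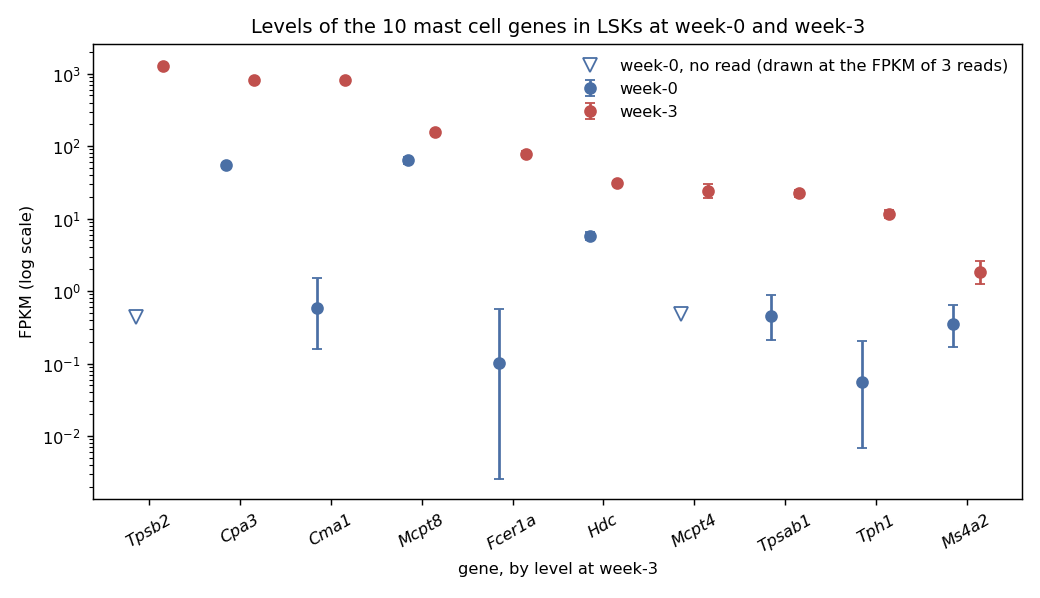
FPKM of the 10 genes (log scale) in the week-0 library (blue) and the week-3 library (red), 1 library each, with 95% exact Poisson intervals of the counting error. Open triangles stand for genes without a read at week-0, drawn at the FPKM of 3 reads, and every gene is higher in the week-3 library.

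RefSeq promoter sequences, from 250 bases before to 50 bases after the transcript start, were at hand for 8 of the 10 genes, all but Tpsab1 and Tpsb2. The promoters of proteases and IgE receptor chains that hold letters known to be bound by GATA factors are shown, because Gata1 and Gata2 are known regulators of mast cell genes. Capitals mark the letters AGATAA and, likewise, AGATAG as well as TGATAA and also TGATAG on either strand, and each sequence runs 5' to 3' on the strand of the gene, which is the minus strand of GRCm38.p6 in each case. The windows are chr14:55944626-55944925 for Cma1, chr14:56062261-56062560 for Mcpt4, chr3:20242132-20242431 for Cpa3, chr1:173227180-173227479 for Fcer1a and chr19:11623670-11623969 for Ms4a2.
Cma1: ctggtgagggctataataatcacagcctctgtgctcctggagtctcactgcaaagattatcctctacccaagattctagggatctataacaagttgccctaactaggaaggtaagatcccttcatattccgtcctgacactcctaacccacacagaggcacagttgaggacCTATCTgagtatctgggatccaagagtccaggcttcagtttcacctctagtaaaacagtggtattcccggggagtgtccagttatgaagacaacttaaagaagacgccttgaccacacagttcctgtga
Mcpt4: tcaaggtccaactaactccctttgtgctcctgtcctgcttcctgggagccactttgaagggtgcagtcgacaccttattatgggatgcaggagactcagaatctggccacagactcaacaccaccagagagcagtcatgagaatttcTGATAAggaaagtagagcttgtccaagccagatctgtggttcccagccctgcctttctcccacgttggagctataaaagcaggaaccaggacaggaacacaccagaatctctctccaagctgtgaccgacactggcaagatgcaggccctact
Cpa3: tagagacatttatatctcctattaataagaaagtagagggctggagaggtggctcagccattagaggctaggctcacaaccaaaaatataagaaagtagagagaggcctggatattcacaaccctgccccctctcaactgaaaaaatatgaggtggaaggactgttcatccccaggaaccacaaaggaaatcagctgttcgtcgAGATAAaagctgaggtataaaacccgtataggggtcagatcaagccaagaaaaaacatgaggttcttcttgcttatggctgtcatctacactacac
Fcer1a: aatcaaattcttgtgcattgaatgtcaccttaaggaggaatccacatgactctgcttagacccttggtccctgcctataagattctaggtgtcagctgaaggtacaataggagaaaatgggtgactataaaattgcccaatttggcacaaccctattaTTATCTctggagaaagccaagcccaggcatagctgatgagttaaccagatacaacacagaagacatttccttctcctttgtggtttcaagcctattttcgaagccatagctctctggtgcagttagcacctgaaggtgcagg
Ms4a2: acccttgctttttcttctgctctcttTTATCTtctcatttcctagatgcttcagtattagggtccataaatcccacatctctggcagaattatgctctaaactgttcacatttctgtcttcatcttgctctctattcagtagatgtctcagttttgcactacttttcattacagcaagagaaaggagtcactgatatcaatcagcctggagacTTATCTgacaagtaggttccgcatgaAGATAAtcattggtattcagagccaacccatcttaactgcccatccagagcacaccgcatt

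The match lay 46 bases before the start of Cpa3, 79 before that of Cma1, 92 before that of Fcer1a and 103 before that of Mcpt4. Ms4a2 held 3 matches, at 224, 37 and 11 bases before its start. In all, 7 of the 8 genes held a match in a promoter, the exception being Mcpt8, against 33.0% of all 27025 genes with such a promoter. TGTGGT, the letters of RUNX factors, was found in 6 of the 8 genes, against 18.9% of all genes. GAGGAA, known from PU.1 sites, was found in 3 of the 8 genes, against 31.3%, and TTCNNNGAA, the letters of STAT factors, in none of them, against 9.55%. Each motif was searched on both strands, and a match is a description of the letters only. Of the factors, Gata2 had 896 and 378 reads in the week-0 and the week-3 library, a ratio of 0.690 (log2 -0.54, interval -0.71 to -0.36), and Gata1 had 92 and 48 reads, a ratio of 0.853 (log2 interval -0.76 to 0.29).

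The tryptase Tpsb2, which is stored in mast cell granules as a tetramer bound to heparin, had the highest FPKM of the 10 genes at week-3. The gene (ENSMUSG00000033825, chromosome 17 of GRCm38, from 25366550 to 25368094) had no read in the week-0 library and 5442 reads (FPKM 1295) in the week-3 library. Against a floor of 3 reads at week-0 it was 2967-fold higher at week-3, where it ranked 31 among all genes by FPKM. This value is no lower limit of the ratio. At week-0 the FPKM of Tpsb2 had an exact Poisson interval up to 0.537, above the 0.437 that 3 reads give. Its neighbour Tpsab1 encodes a tryptase known to be carried by C57BL/6 mice with a splice site defect. Tpsab1 (ENSMUSG00000024173, chromosome 17, from 25343245 to 25345562) had 9 reads (FPKM 0.459) in the week-0 library against 268 (FPKM 22.4) in the week-3 library, a 48.7-fold difference (25.3 to 108). At week-3 the reads of Tpsb2 outnumbered those of Tpsab1 by 20.3 to 1. Their transcripts aligned with 79.1% identity over 401 bases, and no window of 100 bases of either recurred in a transcript of another gene with at most 2 mismatches, the mapping limit of the study.

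The chymases were also higher. Cma1, a chymase of connective tissue mast cells (ENSMUSG00000022225, chromosome 14, from 55941453 to 55944661), had 4 reads (FPKM 0.586) in the week-0 library against 3361 (FPKM 805) in the week-3 library. The ratio was 1374, with an interval from 536 to 5046. Mcpt4, another chymase of connective tissue mast cells (ENSMUSG00000061068, chromosome 14, from 56059744 to 56062310), had no read at week-0. The week-3 library held 93 reads (FPKM 24.2), 50.7-fold higher than a floor of 3 reads at week-0 would give. Both chymases resemble other genes in sequence. Of the 991 windows of 100 bases in the Cma1 transcript, 13.9% recurred in the transcript of Gm48934, and of the 1009 windows of Mcpt4, 4.46% recurred in Cma2, which had no reads in either library.

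Mcpt8, the protease by which mouse basophils are recognised, stood apart from the chymases. It (ENSMUSG00000022157, chromosome 14, from 56082166 to 56085216) had 346 reads (FPKM 63.7) in the week-0 library, the highest FPKM of the 10 genes in that library. The week-3 library held 517 reads (FPKM 156), a ratio of 2.44 (2.13 to 2.81), the lowest of the 10, with an interval that overlaps that of Ms4a2. Cpa3, the granule carboxypeptidase, which is also known from early progenitors, had 524 reads (FPKM 54.3) in the week-0 library. The gene (ENSMUSG00000001865, chromosome 3, from 20215620 to 20242181) had 4840 reads (FPKM 821) in the week-3 library, a ratio of 15.1 (13.8 to 16.6). Mcpt8 and Cpa3 overlap the microRNA genes Mir6949 and Mir7007, and reads in these stretches could belong to either. For each read of Mcpt8 there were 1.51 reads of Cpa3 at week-0 and 9.36 at week-3.

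Both chains of the IgE receptor that are particular to it were measured. Fcer1a, the alpha chain that binds IgE (ENSMUSG00000005339, chromosome 1, from 173221284 to 173227214), had 1 read (FPKM 0.102) in the week-0 library against 465 (FPKM 77.3) in the week-3 library. The ratio of 760.4 is known only between 136 and 30100. Ms4a2, the beta chain that amplifies the signal (ENSMUSG00000024680, chromosome 19, from 11615523 to 11623719), had 10 reads (FPKM 0.351) in the week-0 library against 32 (FPKM 1.84) in the week-3 library. Its ratio was 5.23 (2.51 to 11.9), and its FPKM at week-3 was the lowest of the 10 genes. Reads of Fcer1a outnumbered those of Ms4a2 by 14.5 to 1 at week-3. The gamma chain Fcer1g, which other Fc receptors use too, had 565 reads in the week-0 library against 550 in the week-3 library, a ratio of 1.59 that does not reach the limit.

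The enzymes of amine synthesis differed from each other at week-0. Hdc, which makes histamine (ENSMUSG00000027360, chromosome 2, from 126593667 to 126619299), had 274 reads (FPKM 5.75) there against 895 (FPKM 30.7) in the week-3 library. Its ratio was 5.34 (4.66 to 6.14). Tph1, the rate-limiting enzyme of serotonin synthesis outside the nervous system (ENSMUSG00000040046, chromosome 7, from 46647130 to 46672537), had 2 reads (FPKM 0.0561) in the week-0 library against 253 (FPKM 11.6) in the week-3 library. The ratio was 207, with an interval from 56.7 to 1718. The reads of Hdc outnumbered those of Tph1 by 137 to 1 at week-0 and by 3.54 to 1 at week-3.

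The genes thus fell into those with 10 or fewer reads at week-0 and those with more than 100. The 7 genes of low counts, Tpsb2, Tpsab1, Cma1, Mcpt4, Fcer1a, Ms4a2 and Tph1, had 26 reads together at week-0 and 9914 at week-3. The 3 genes with over 100 reads at week-0, Cpa3, Mcpt8 and Hdc, had 1144 and 6252 reads. Since the genes were divided by their week-0 counts, which enter the ratios, the division favours higher ratios in the set of low counts. It is a description only, and the sets overlap. The ratio of Ms4a2, 5.23, lies below those of Cpa3, 15.1, and Hdc, 5.34. At week-0 the 3 genes with over 100 reads supplied 97.8% of the reads of the group. Cpa3 stood at 44.8%, Mcpt8 at 29.6% and Hdc at 23.4%. At week-3 they supplied 38.7%, and Tpsb2 at 33.7%, Cpa3 at 29.9% and Cma1 at 20.8% led.

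**Figure D2:**
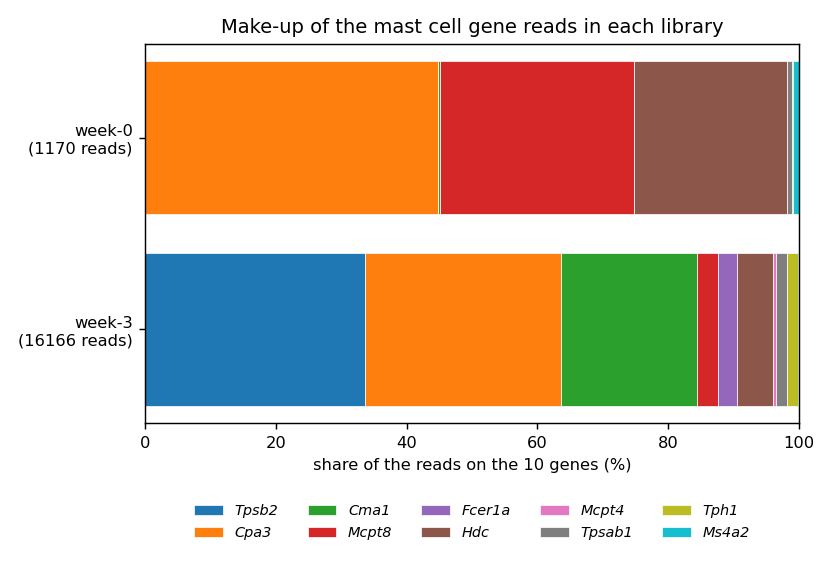
Share of each gene in the reads on the 10 genes (%), for the week-0 library (1170 reads) and the week-3 library (16166 reads). Cpa3, Mcpt8 and Hdc fill most of the upper bar, while Tpsb2, Cpa3 and Cma1 fill most of the lower one.

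By FPKM, a level per length of exon model, the order at week-3 was Tpsb2, Cpa3, Cma1, Mcpt8, Fcer1a, Hdc, Mcpt4, Tpsab1, Tph1 and Ms4a2. The counting intervals of Cpa3 and Cma1 overlapped, as did those of Hdc and Mcpt4 and those of Mcpt4 and Tpsab1. At week-0 Mcpt8 and Cpa3 led with overlapping intervals, Hdc came next, and the other 7 genes followed at an FPKM of 0.586 or lower. The order between genes depends on the length behind each FPKM. That length was 3083 bases for Tpsab1, longer than the 2094 bases its exons cover in GENCODE M21, and 1081 bases for Tpsb2 against 1594. It was 4485 bases for Ms4a2 against 2813, and 1548 bases for Fcer1a against 998, so their FPKM depends on it as well. The 3083 bases also exceed the whole stretch given for Tpsab1, so its FPKM and its place in the order are uncertain. With the GENCODE lengths, a choice made after seeing the data, 8 of the 10 genes kept their place at week-3, and Tpsab1 and Mcpt4 changed places.

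Several of the 10 genes lie in clusters of related genes, and 9 of them are on the minus strand. Cma1, Mcpt4 and Mcpt8 belong to the chymase locus of chromosome 14. Within 300 kb of Cma1, 14 genes were of the chymase, cathepsin G and granzyme families, and 5 of these had at least 10 reads. Besides the 3 genes above, Ctsg, the cathepsin G gene of neutrophil and mast cell granules, had 2423 reads in the week-0 library against 10942 in the week-3 library, a ratio of 7.39 (log2 2.88, interval 2.82 to 2.95). Gzmc had 23 reads at week-0 and none at week-3. The chymases known from mucosal mast cells stayed near the smallest level that could be seen, with 6 reads of Mcpt1 and 4 reads of Mcpt2 at week-3, and none at week-0. Mcpt9, a protease of uterine mast cells, had no read in either library. Of a list of 19 further granzymes, tryptases, chymases and cathepsins, which does not hold the neutrophil proteases given with their markers, 7 had at least 10 reads. Of these, 4 were higher, namely Ctsc, Ctsg, Gzmb and Tpsg1, and 2 were lower, namely Gzmc and Prss34, beside 11.9% and 17.9% of all genes. Ctsc activates such proteases by trimming them and had 322 and 459 reads, a ratio of 2.33. Of the 14 genes of other families within 300 kb of Cma1 with at least 10 reads, 1 was higher and 2 were lower by the limit. Beside the same shares of all genes, these counts are no result about the neighbours.

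In the tryptase locus of chromosome 17, Tpsg1, a tryptase anchored in the membrane, lies 23.7 kb from the start of Tpsab1. It had 3 reads in the week-0 library against 71 in the week-3 library, a ratio of 38.7 (log2 5.27, interval 3.67 to 7.59). Prss34, a tryptase of basophils and some mast cells, starts at -47.2 kb from Tpsab1, toward lower coordinates, and was lower at week-3, with 1300 reads in the week-0 library against 380 in the week-3 library, a ratio of 0.478 (log2 -1.06, interval -1.23 to -0.90). Of the 13 genes of other families in the window with enough reads, 1 was higher and 3 were lower. The shares over all genes were 11.9% and 17.9%, so these counts are no result about the neighbours. The Ms4a locus of chromosome 19 holds membrane proteins related to the beta chain. Of 7 Ms4a genes with at least 10 reads, 6 were higher at week-3 and none was lower, beside the same shares of all genes. Ms4a2 itself is among the 6. It had been chosen from this contrast, so its part in that count was fixed beforehand. Of 5 genes of other families in this window with enough reads, BE692007 and Mrpl16 were higher and none was lower. BE692007, with 3 and 17 reads, overlaps Ms4a6c on the other strand. The use of strand in counting is not given, so these reads could belong to either gene. With so few genes, this count is no result about the neighbours. Ms4a3, a gene of granulocyte and monocyte progenitors that starts 17.1 kb from Ms4a2, had 447 and 3211 reads, a ratio of 11.7 (log2 3.55, interval 3.41 to 3.70). Of the 2292 windows of 100 bases in the Ms4a2 transcript, 2.44% recurred in Ms4a4b, which had 25 reads at week-3.

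**Figure D3:**
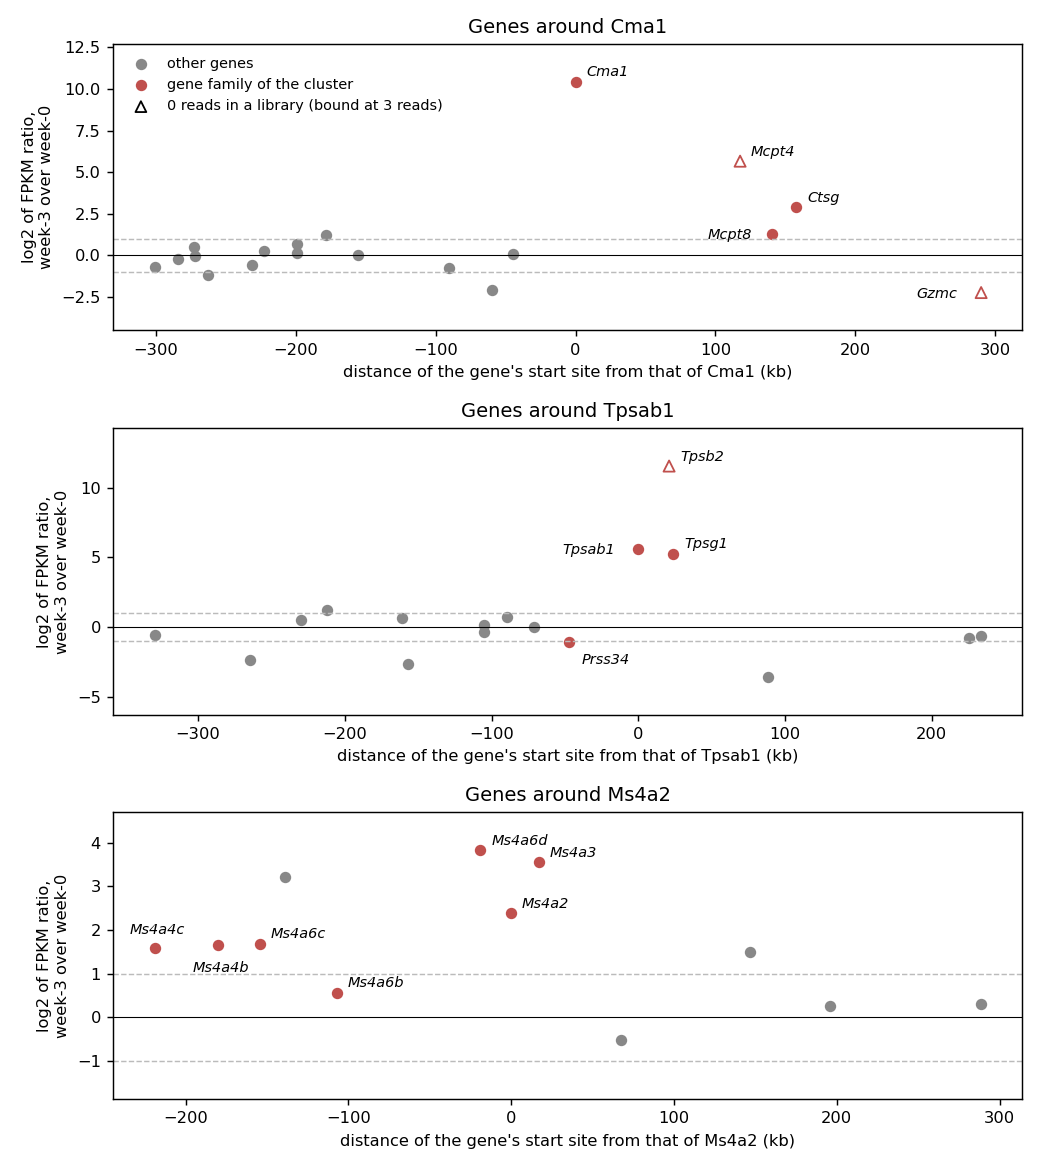
Log2 of the FPKM ratio of week-3 over week-0 for genes with at least 10 reads around Cma1, Tpsab1 and Ms4a2, against the distance between start sites (kb), with the gene families in red, other genes in grey and dashed lines at 2 times and 0.5 times. The ratios of Cma1, Mcpt4, Tpsb2, Tpsab1 and Tpsg1 are the highest in their panels, and Prss34 and Gzmc lie below 0.

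Of the 38 genes that carry the signal of the IgE receptor inside the cell, 37 had at least 10 reads, of which 4 were higher and 6 were lower at week-3. Over all genes tested, 11.9% were higher and 17.9% lower, so these counts are near the background and no result about the list. Their median log2 ratio was 0.10, against 0.05 over all genes tested. Syk, the kinase that binds the phosphorylated gamma chain, had 1235 and 363 reads, a ratio of 0.481. Lat, the adaptor that Syk phosphorylates, had 501 and 134 reads, a ratio of 0.437, and Inpp5d, the lipid phosphatase that restrains the pathway, had 1562 and 324 reads, a ratio of 0.339. Lyn, the kinase that starts the signal, had 541 and 212 reads, and its ratio of 0.641 did not reach the limit. Rasgrp4, an activator of Ras known from mast cells, had a ratio of 17.2, with 2 reads in the week-0 library against 21 in the week-3 library (log2 interval 2.07 to 7.24). Prkcb, a protein kinase C, had 33 and 56 reads and was higher, and Nfatc1, a transcription factor at the end of the calcium branch, had 998 and 103 and was lower. Fcer1a and Ms4a2 had been chosen for their difference between these libraries. Nothing is therefore read from how the ratios of the gamma chain and the kinases stand to theirs.

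Genes of the machinery that fills the granules are given by their values, and their counts are to be read against the 11.9% and 17.9% of all genes that were higher and lower. Srgn, the core protein that carries heparin, had 10257 and 6737 reads, a ratio of 1.07. Of 17 genes of this core protein and of the synthesis of heparin and chondroitin sulfate, 1 was higher and 3 were lower. Ndst2, the sulfotransferase that mast cell heparin requires, had a ratio of 1.67. Slc18a2, which pumps histamine and serotonin into granules, had 334 and 192 reads, a ratio of 0.940 (log2 interval -0.35 to 0.17). Among 14 genes of amine storage, cofactors and breakdown with enough reads, 3 were higher and 3 were lower. Maob, an enzyme that breaks down amines, had no read in the week-0 library against 45 in the week-3 library. Against a floor of 3 reads its ratio was 24.5, and the exact lower limit of the ratio was 19.1. Slc6a4, the serotonin transporter, had 1 and 17 reads. Gch1, which starts the synthesis of the cofactor that Tph1 needs, was lower, with 435 and 90 reads and a ratio of 0.338. Of 9 genes of lipid mediators, Alox5, which starts leukotriene synthesis, was higher, with 21 and 142 reads and a ratio of 11.1 (log2 3.47, interval 2.80 to 4.20). Ptgs2 and Ptges of the prostaglandin branch were lower, and 6 genes of the list were past neither limit. Ptges had only 24 and 6 reads, with a log2 interval of -2.87 to 0.04. Ptgs2 had 253 reads in the week-0 library against 9 in the week-3 library, a ratio of 0.0582.

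Surface and signalling genes known from mast cells and basophils were listed with earlier results of these data known, so their count is a description. Of 31 with at least 10 reads, 14 were higher and 2 were lower, with a median log2 ratio of 0.93, beside 11.9% and 17.9% of all genes. Lists by annotation differed from this one. The genes annotated to the mast cell granule held none of the 10 genes, so the granule proteases among these are not in that list. Of its 16 genes with that many reads, 0 were higher and 3 were lower, with a median of 0.06. Of 41 annotated to mast cell activation, among them Fcer1a, 7 were higher and 7 were lower, with a median of -0.09. Il1rl1, the receptor for IL-33, had 14 and 116 reads, a ratio of 13.6 (log2 3.76, interval 2.96 to 4.68). Mrgprb2, a receptor of connective tissue mast cells for basic secretagogues, had no read at week-0 and 23 at week-3. Against a floor of 3 reads it was 12.5-fold higher. Cd200r3 had 15 and 94 reads, a ratio of 10.2, and Csf2rb, the shared beta chain of cytokine receptors, had 298 and 665, a ratio of 3.65. Kit itself had a ratio of 0.682 (log2 -0.55, interval -0.69 to -0.41). Il4, which basophils secrete, had 9 and 15 reads. Of 23 transcription factors of the lineage, 3 were higher and 6 were lower, beside the same shares of all genes. Mitf had 36 and 24 reads, a ratio of 1.09 (log2 interval -0.68 to 0.91). Cebpa had 105 and 153 reads, a ratio of 2.38, and Hes1 had 1976 and 60, a ratio of 0.0497.

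Over the 2 libraries, the likeness of any other gene to the group can be measured only by its ratio. The 10 further genes with the highest lower bound of the 95% interval of that ratio were Maob, Chil3, Cyp11a1, Slc45a3, Hp, Tpsg1, Zfp930, Ms4a3, Tctex1d1 and Dmkn. The exact lower limit was 19.1 for Maob and 10.3 for Tctex1d1, which had no read at week-0. This limit is not the bound against 3 reads, and a ranking by that bound would bring in other genes such as Grm6 and Mrgprb2. Cyp11a1, which starts steroid synthesis, had 33 and 436 reads, a ratio of 21.6. Slc45a3, a transporter gene, had 4 and 96 reads, a ratio of 39.2. Chil3, a secreted protein of myeloid cells, had 39 and 528 reads, a ratio of 22.1, and Hp, haptoglobin, had 204 and 1904 reads, a ratio of 15.3.

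Markers of other cells moved between the libraries as well, and their part in the result was not tested. The sums given are over each whole list. The counts are to be read against the 11.9% and 17.9% of all genes that were higher and lower. Of 12 neutrophil markers, 11 were higher and none was lower at week-3, and their sum went from 3118 to 13693 RPM. Elane, the neutrophil elastase gene, had 5454 and 18391 reads, a ratio of 5.51, and no neutrophil marker was at 0. Of 8 eosinophil markers with enough reads, 2 were higher and 4 were lower, with Ccr3 at 0 in both libraries. The sum went from 292 to 163 RPM, of which Prg2 took 244 and 130 RPM. All 10 erythroid markers were lower, with a sum of 1511 RPM at week-0 and 111 at week-3. Of 7 B cell markers with enough reads 5 were lower, with a sum of 8009 and 686 RPM. Most of that sum was Igkc, with 4431 and 222 RPM, and Ighm, with 3498 and 405 RPM, while Cd79b had 49.4 and 55.6 RPM. Of 9 megakaryocyte and platelet markers 2 were lower, with a median log2 ratio of -0.70 and none at 0. Their sum of 179 and 233 RPM goes the other way through Itga2b, which had 87.2 and 166 RPM. Of 5 monocyte and macrophage markers 2 were higher, with a sum of 233 and 958 RPM and C1qc at 0 at week-3. Ly6c2 took 176 and 810 RPM of that sum. None of 3 T and NK cell markers was past the limit. Their list had a sum of 499.8 and 704 RPM, of which Nkg7 took 447 and 676 RPM, and Cd3e, Cd8a, Cd8b1 and Ncr1 were at 0 at week-3. Of the stem and progenitor markers, 1 was higher and 5 were lower.

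**Figure D4:**
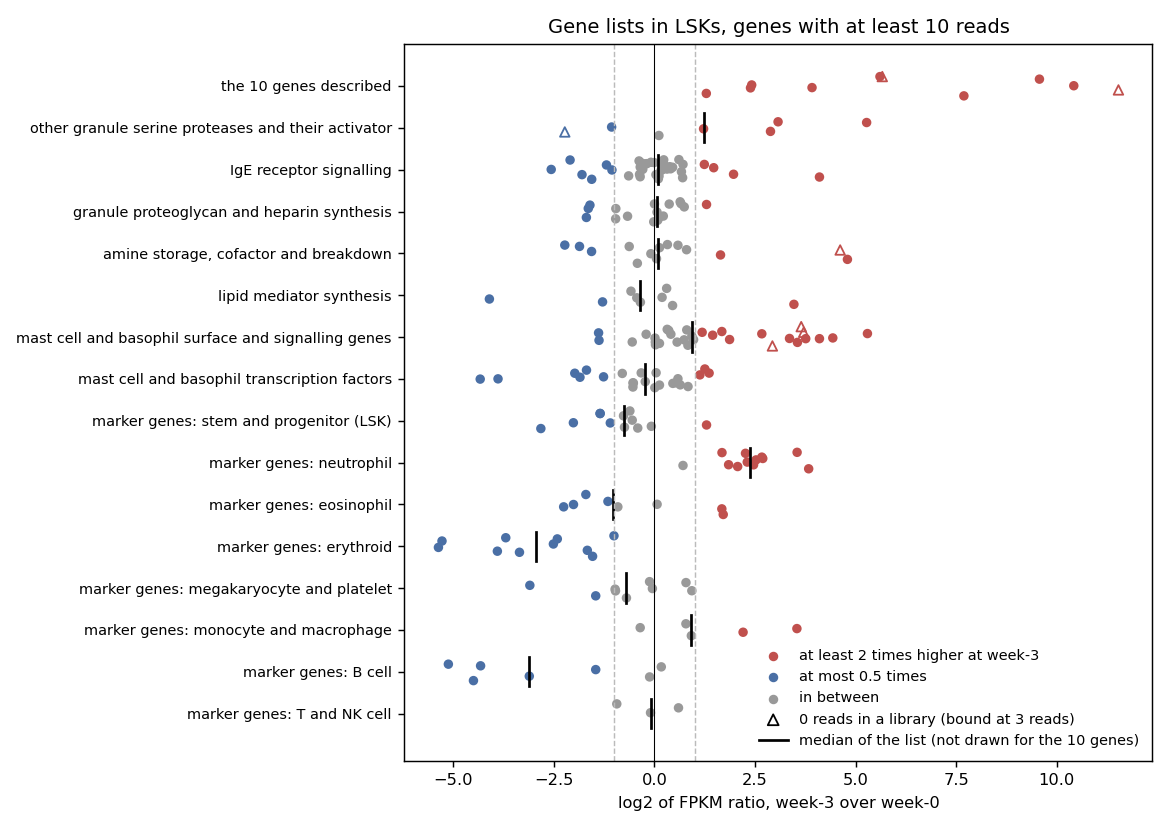
Log2 of the FPKM ratio of week-3 over week-0 for each gene with at least 10 reads, by gene list, with red for genes at least 2 times higher at week-3, blue for genes at most 0.5 times, and black bars at the median of each list other than the group described. The 10 genes, which had been chosen from this contrast, all lie to the right of the dashed line at 2 times. The IgE receptor signalling genes centre on a median of 0.10.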

How the data were processed

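RNA of sorted LSKs was sequenced by the study as paired ends of 100 bases after SMARTer amplification, and the reads were mapped to GRCm38 (mm10) with TopHat2 2.0.9 allowing 2 mismatches. The authors deposited read counts per gene, without normalization, and FPKM scaled by exon length and reads. The counting tool, its use of strand and the annotation release are not given in the sources used here. The ratios of the deposited FPKM and of reads per total agreed within 0.1% for 100% of genes with reads in both libraries.

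With 1 library per time point no test across mice was possible. A gene was called when its FPKM at week-3 was 2 times that at week-0 or more, or 0.5 times or less, with at least 10 reads over both libraries. A count of 0 was set at 3 reads for a bound, which is not a 95% limit. The 95% intervals of ratios follow Clopper and Pearson (exact), and those of levels are exact Poisson intervals. Named genes are the 10 genes, genes of the lists past the limit or at 0, neighbours within 300 kb, the 10 genes with the highest lower limit of the ratio, and Bcr and Abl1 as parts of the transgene. Fcer1g, Lyn, Srgn, Ndst2, Slc18a2, Gata1, Gata2, Mitf, Kit and Ly6a were named for their known roles after their values were seen. Itga2b, Nkg7, Prg2 and Cd79b were named likewise for their part in a sum. The genes and lists were chosen with earlier results of these data known. Alternatives were other limits, read minimums, pseudocounts, TMM and median-of-ratios scaling, and edgeR's exact test with an assumed biological coefficient of variation (BCV) of 0.1 or 0.4. Such a test compares the libraries, not the conditions. Strand and exon lengths came from GENCODE M21, which held 34267 of the genes, and promoters from RefSeq (GRCm38.p6). Transcripts were compared with blastn 2.17.0. The scripts were tested on simulated data. Values of a few list genes are not reported here. R 4.3.3, edgeR 4.0.16, DESeq2 1.42.0, Python 3.11.15, pandas 2.3.3 and scipy 1.17.1 were used.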

Additional observations from a re-analysis of the deposited data

How the results depend on the processing

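All 10 genes stayed past the limit with limits of 1.5 and 0.67, without a read minimum, with TMM or median-of-ratios scaling, with a pseudocount of 1 FPKM, with a counting interval that leaves out 1, and in edgeR's exact test with a BCV of 0.1. Mcpt8 was not called with a limit of 4, Ms4a2 not with a minimum of 50 reads, and Mcpt8, Ms4a2 and Hdc not with a BCV of 0.4, which left 7. With an assumed spread and genes chosen from this contrast, that is no test of the 10 genes. TMM scaling shifted every log2 ratio by -0.11 and median-of-ratios scaling by -0.09, and no ratio of the 10 genes changed direction under these or the pseudocounts. With a pseudocount of 1 FPKM, 5 of the 8 log2 ratios with a counting interval lay outside it, and the highest was 10.34, that of Tpsb2. Adding the reads of Tpsab1 and Tpsb2 gave a log2 ratio of 10.02, against 5.61 for Tpsab1 alone. The summed level of the group was 22.6 times higher at week-3, 15.0 times without Tpsb2, 28.7 times without Cpa3 and 20.9 times with TMM scaling.

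Over all genes, 1633 were higher and 2455 lower. These numbers were 3362 and 3692 with limits of 1.5 and 0.67, 415 and 937 with limits of 4 and 0.25, 917 and 1317 with at least 50 reads, 686 and 1068 with a pseudocount of 1 FPKM, and 52 and 195 with edgeR's exact test at a BCV of 0.4. Of the IgE receptor signalling genes, 10 were past the limit, 3 with limits of 4 and 0.25, 5 with the pseudocount of 1 FPKM and 0 at a BCV of 0.4. No paired analysis was possible because each time point has 1 library. The depth limits the 7 genes with 10 or fewer reads at week-0, whose ratios are known only within wide intervals or as a bound.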
